A study of Mus musculus with 15 samples.

Results

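The Eph receptors and their ephrin ligands were followed across 2 mouse lung cancer lines with and without knockdown of Siva. The set held 10 genes, the receptors Epha1, Epha2, Epha4, Epha7, Ephb2, Ephb3 and Ephb4 and the ligands Efna1, Efnb1 and Efnb2, taken by their gene name from the non-control spots of the scanner files, with every probe of each gene. They have 14 of the 55681 probes on the array, and all 10 genes were among the 22908 genes measured, out of 36282 names on the array. A gene counted as measured when a probe was well above background on at least 4 of the 15 arrays, and 13 of the 14 probes passed.

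LSZ2 and LSZ4 are mouse non-small cell lung cancer lines, grown as cultures in serum. Cells were infected with a lentiviral hairpin, and the study compared shSiva1 and shSiva2, both in the vector pLKO TRC2.0 and aimed at the p53 target gene Siva, with the control hairpins shGFP, in pLKO.1, and shLacZ, in LL37. Cells with shGFP, shSiva1 or shSiva2 were kept in puromycin for 3 days, the shLacZ cells were not, and all were harvested 2 days after plating. Each line and hairpin had 2 arrays, apart from LSZ2 with shGFP, which had 1, giving 7 control and 8 shSiva arrays. The LSZ4 shGFP arrays are numbered shGFP1 and shGFP2, and the shLacZ arrays of each line shLacz1 and shLacz2. All were treated as repeats, although the numbers could also name hairpins. Slide 1 carried every control array and slide 2 every array with a Siva hairpin, so slide, vector and Siva hairpin cannot be told apart, whereas shSiva2 against shSiva1, shGFP against shLacZ and LSZ2 against LSZ4 were each compared within slides.

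Eph receptors are the largest family of receptor tyrosine kinases, and ephrins are their ligands on neighbouring cells. Class A ephrins are held in the membrane by a lipid anchor, class B ephrins cross it, and most EphA receptors bind class A ligands and most EphB receptors class B ligands. Binding at a cell contact can signal into both cells, forward through the receptor's kinase and in reverse through the ephrin, and often makes the cells pull apart. The family is known for guiding axons, keeping tissue boundaries and placing vessels and epithelial cells, and several members are found at altered levels in carcinomas.

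A level below is the log2 of the processed signal relative to the 75th percentile of its array, so that 0 is the signal of that percentile. Levels of different probes were not set against each other. The 75th percentile ran from 354 to 871 intensity units, and the LSZ4 shGFP arrays were the dimmest, at 354 and 381. The targeted transcript, Siva1, was at least 5.50 on each control array and at most 4.35 on each shSiva array, with 17.6% of its signal left. Of the epithelial markers, Cdh1, Krt8, Krt18 and Krt19 were well above background on all 15 arrays and Epcam on 14. Of the lung markers, Sftpb was so on 11 arrays and Scgb1a1 on 8, and Nkx2-1 and Sftpc on 0 arrays. The same was true of 5 of 8 fibroblast markers (Pdgfra, Pdgfrb, Thy1, Dcn and Lum), 4 of 6 endothelial markers (Cdh5, Tek, Tie1 and Emcn) and the blood marker Lyz2. With a Siva hairpin Epcam rose by 0.69 (adjusted p = 0.00978), and the endothelial marker Pecam1 fell by 0.64 (adjusted p = 0.018). In the same comparison 9.55% of all genes were called. The summed level of the epithelial list ran from 1312 to 3325 in control and from 1337 to 2720 in shSiva arrays, that of the endothelial list from 4.75 to 14.6 and from 4.07 to 11.7, and the part of these shifts in the results was not tested. A lower level can mean fewer cells with a transcript or less of it per cell, and these cannot be told apart.

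The probes decide what each value stands for, and those whose letters bear on the results are shown 5′ to 3′ on the strand of the transcript. Epha7 (chromosome 4, plus strand, mm9) had 3 probes, of which the one used lay at chr4:28891069-28891128 and was assigned to transcript NM_010141. A further probe at chr4:28869764-28869823 was well above background on 6 arrays, and the remaining one, at chr4:28873570-28873629, on 0 arrays. Both of these were assigned to NM_001122889, so that the measured probes read different places in the gene.
Epha7 probe used: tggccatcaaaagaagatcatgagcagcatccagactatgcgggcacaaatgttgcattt
Epha7 further probe: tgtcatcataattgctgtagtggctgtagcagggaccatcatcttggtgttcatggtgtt
Ephb4 further probe: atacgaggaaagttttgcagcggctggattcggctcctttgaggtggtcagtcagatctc
The Ephb4 probe shown, at chr5:137813703-137813762, is a second place in a gene whose level followed the brightness of the array. The next sequences are the last 30 bases of the only Ephb3 probe and of the measured probe of Epha5, a receptor outside the set, with the repeat of GT in capitals. They lie at chr16:21223195-21223224 on the plus strand and chr5:84487348-84487377 on the minus strand of mm9, and the repeat of the whole probe ran to 16 GT units in Ephb3 and 9 in Epha5.
Ephb3 probe, last 30 bases: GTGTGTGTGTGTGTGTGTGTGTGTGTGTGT
Epha5 probe, last 30 bases: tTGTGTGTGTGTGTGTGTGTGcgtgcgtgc

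Epha1 and Epha4 were the receptors that rose with a Siva hairpin, and the 250 bases before their start sites are given for that reason. The letters are from RefSeq on GRCm38.p6, a later build than that of the probes. Capitals mark GC boxes, GGGCGG on either strand.
Epha1, chr6:42373269-42373518, minus strand: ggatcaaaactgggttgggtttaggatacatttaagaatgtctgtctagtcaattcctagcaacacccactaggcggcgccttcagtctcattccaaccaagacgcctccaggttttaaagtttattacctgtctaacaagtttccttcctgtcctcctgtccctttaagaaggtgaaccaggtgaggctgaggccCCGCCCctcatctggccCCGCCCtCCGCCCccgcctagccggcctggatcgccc
Epha4, chr1:77515089-77515338, minus strand: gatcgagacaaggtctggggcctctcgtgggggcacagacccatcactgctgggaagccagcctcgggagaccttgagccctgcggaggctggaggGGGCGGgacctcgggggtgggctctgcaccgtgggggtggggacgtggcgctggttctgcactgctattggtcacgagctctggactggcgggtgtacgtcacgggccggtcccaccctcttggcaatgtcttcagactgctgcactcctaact
The Epha1 window held 3 GC boxes, close to the start site, and the Epha4 window 1. Promoters of all 10 genes were found in RefSeq, and 8 of them held a GC box, against 32.7% of 32851 mouse promoters of this length. The windows without one were those of Ephb2 and Efnb1. The AP-1 site TGACTCA and the E-box CACGTG were in 0 of the 10 windows, against 4.46% and 6.02% of all promoters, and TATAAA was in the Efnb2 window alone, against 12.4%. Between 54.4% and 72% of the bases were G or C, where the median promoter had 52.4%. These letters describe the windows and show no binding.

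With a Siva hairpin, both arms pooled and line held constant, Epha4 was the member that passed the test under the main scaling. It was 1 of 10, where 9.55% of all genes tested were called by limma at an adjusted p under 0.05. Epha1 was higher by 1.38 (SE 0.45, adjusted p = 0.0655) and Epha7 lower, with a difference of -0.84 (SE 0.28, adjusted p = 0.0682), without passing. Ephb2 read -0.31 (SE 0.11, adjusted p = 0.079) and Efnb1 -0.42 (SE 0.20, adjusted p = 0.201), and the other 5 lay between 0.01 and 0.19. The median difference over the 10 genes was 0.09, beside -0.11 over all genes. For 0 of 10 members did the arrays of the arms not overlap, against 2.3% of all genes. Under quantile normalization Epha2 (0.35, adjusted p = 0.0188), Ephb2 (-0.32, adjusted p = 0.0172) and Ephb3 (0.31, adjusted p = 0.0403) passed as well. With the brightness of the array as a further term, Epha1, Epha7, Ephb2 and Ephb3 did (adjusted p = 0.0477, 0.00128, 0.00901 and 0.0203). Without both LSZ4 shGFP arrays Epha7 passed, at -1.06 (adjusted p = 0.0481), and Epha4 did not. Both last settings were chosen after seeing the data. As the plot of levels shows, the pooled value hid differences between the hairpins, which are given by gene below.

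**Figure D1:**
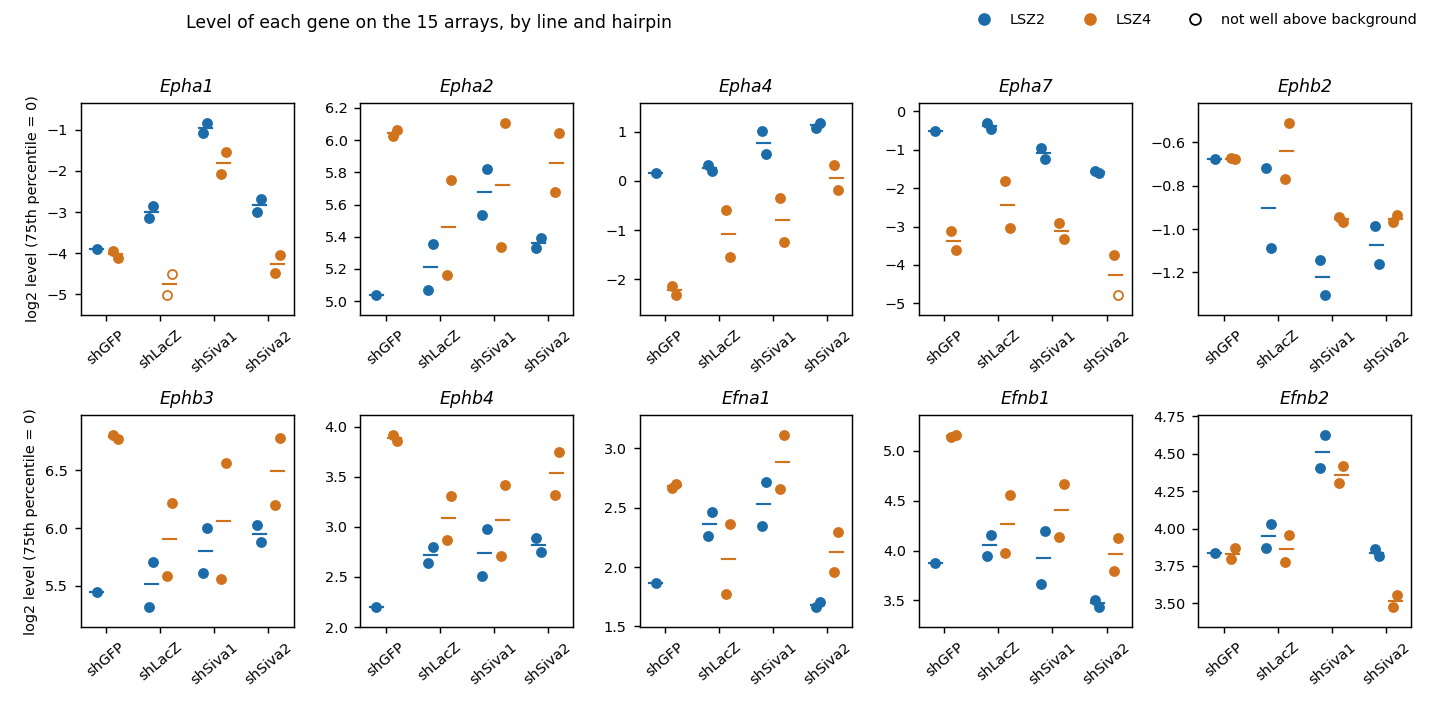
The log2 level of each of the 10 genes (its brightest probe; 0 is the 75th percentile of the array) on each of the 15 arrays, by hairpin, with LSZ2 in blue and LSZ4 in orange. Short lines are means of a line and hairpin, and open circles are arrays on which the probe was not well above background; Epha1 and Efnb2 stand highest with shSiva1, and Epha7 is higher on every LSZ2 array than on any LSZ4 array.

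Among the EphA receptors, Epha1 rose with shSiva1 and not detectably with shSiva2. Epha1 is the first member of the family to have been cloned, from a carcinoma line. Its probe (chromosome 6, 42308583 to 42308642, minus strand, mm9) was well above background on 13 of 15 arrays. In LSZ2, Epha1 read -1.08 and -0.84 with shSiva1, -2.99 and -2.68 with shSiva2, -3.14 and -2.85 with shLacZ and -3.90 with shGFP. In LSZ4 it read -2.07 and -1.53 with shSiva1, -4.48 and -4.05 with shSiva2 and -3.95 and -4.11 with shGFP. On the LSZ4 shLacZ arrays it read -5.00 and -4.51 and was not well above background. Every shSiva1 array therefore stood above all control and all shSiva2 arrays of both lines. The shSiva2 arrays overlapped the controls.

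Fitted over both lines, Epha1 rose by 2.47 with shSiva1 (SE 0.24, adjusted p = 2.62e-06), a 5.52-fold difference. The controls include the undetected values of the LSZ4 shLacZ arrays. This size, and those below within LSZ4 and against shLacZ, are therefore not exact. With shSiva2 the difference was 0.29 (SE 0.24, adjusted p = 0.53), with a 95% interval from -0.21 to 0.80. The hairpins themselves differed by -2.17, shSiva2 less shSiva1 (SE 0.27, adjusted p = 3.18e-05), so that Epha1 with shSiva2 was at 22.2% of its level with shSiva1. Within LSZ2 alone the shSiva1 difference was 2.49 (SE 0.25, adjusted p = 0.000119) and within LSZ4 2.59 (SE 0.23, adjusted p = 2.69e-05). Epha1 also differed from each control hairpin separately, by 1.34 against shGFP (adjusted p = 0.00475) and 1.41 against shLacZ (adjusted p = 0.0015), both with the Siva hairpins averaged. The rise with shSiva1 and the difference between the hairpins passed under 26 of 26 alternatives run, with the values smallest under normexp background correction, at 1.57 and -1.36. With that correction the difference from shGFP was 0.82 (adjusted p = 0.0502), and without both LSZ4 shGFP arrays it was 2.11. With each line and hairpin reduced to 1 mean, neither difference from a control hairpin passed, at 1.502 for shGFP (adjusted p = 0.0587) and 1.41 for shLacZ (adjusted p = 0.0934).

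Some markers of cell identity were called in the same contrasts, in which 24.7% of all genes were called with shSiva1 and 19.2% between the hairpins. With shSiva1 against control, where Epha1 and Efnb2 rose, Epcam rose by 0.76 and Sftpb and Scgb1a1 fell by 2.81 and 0.71, of 7 measured epithelial markers. Col1a1 rose by 2.19 and Pecam1 fell by 0.69, and these 5 markers had an adjusted p of at most 0.0172. Between the hairpins, shSiva2 less shSiva1, 3 of 7 measured epithelial markers were higher, Sftpb by 3.95 (adjusted p = 9.83e-05), Cdh1 by 1.01 (adjusted p = 0.00288) and Scgb1a1 by 0.78 (adjusted p = 0.0224). Of 3 measured fibroblast markers 1, Col1a1, fell by 3.13 (adjusted p = 5.32e-05), and of the endothelial (2) and blood (4) markers measured 0 passed. Col1a1 was well above background on only 5 arrays, Scgb1a1 on 8 and Sftpb on 11. The differences of Col1a1, Scgb1a1 and Sftpb therefore include undetected values, so their sizes are not exact and are given as a description. The summed level of the fibroblast list, on the linear scale, ran from 0.212 to 0.374 on shSiva1 and from 0.157 to 0.221 on shSiva2 arrays, and that of the epithelial list from 1337 to 2142 and from 1456 to 2720. The part of these shifts in the Epha1 values, and in the Efnb2 and Efna1 values given further on, was not tested.

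In those fits 3 of 10 members were called with shSiva1 (24.7% of all genes), 2 of 10 with shSiva2 (11.9%) and 3 of 10 between the hairpins (19.2%). The shares of members were thus close to those of all genes with shSiva1. The median difference of the 10 genes was 0.12 with shSiva1 and -0.03 with shSiva2, against -0.18 and -0.04 over all genes. The arrays did not overlap for 2 of 10 members with shSiva1 (13.1% of all genes), 0 of 10 with shSiva2 (7.76%) and 3 of 10 between the hairpins (22%).

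**Figure D2:**
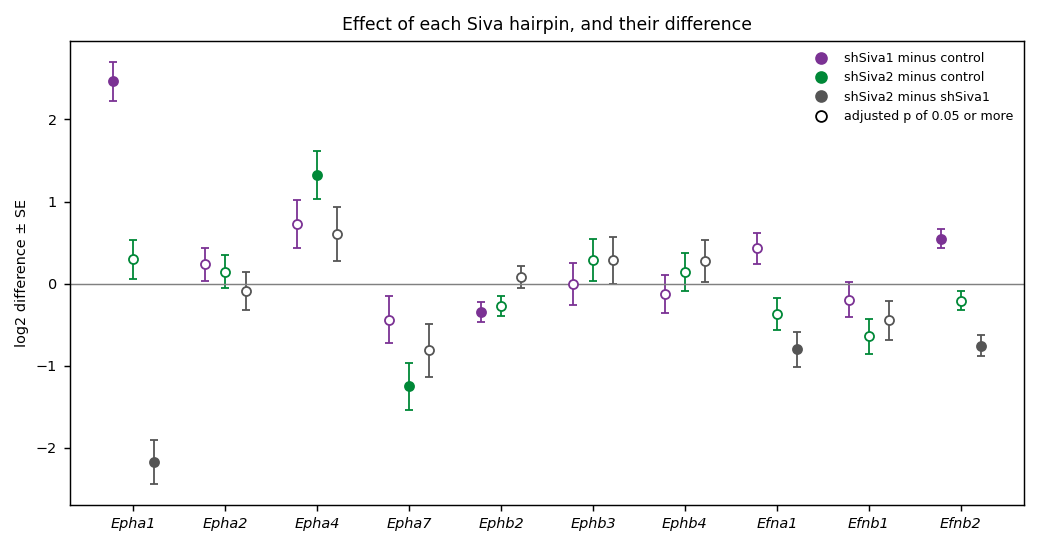
Log2 difference of each gene with its standard error for shSiva1 minus control (purple), shSiva2 minus control (green) and shSiva2 minus shSiva1 (grey), from fits over all 15 arrays. Filled circles have an adjusted p under 0.05; Epha1 stands at 2.47 with shSiva1, Epha4 at 1.33 and Epha7 at -1.25 with shSiva2.

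Epha4 and Epha7 passed with shSiva2, in opposite directions. Epha4, which binds ephrins of both classes and is best known from growth cone repulsion, has 1 probe (chromosome 1, 77364339 to 77364398, minus strand, mm9). In LSZ2, Epha4 read 1.08 and 1.17 with shSiva2, 1.01 and 0.54 with shSiva1, 0.33 and 0.19 with shLacZ and 0.16 with shGFP. In LSZ4 it read 0.31 and -0.18 with shSiva2, -0.35 and -1.24 with shSiva1, -0.60 and -1.55 with shLacZ and -2.13 and -2.31 with shGFP. Within each line all shSiva2 arrays lay above all control arrays, and the LSZ4 shGFP arrays were the lowest of the 15.

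Epha4 rose by 1.33 with shSiva2 (SE 0.29, adjusted p = 0.00709), a 2.51-fold difference, and this held under 27 of 27 alternatives run. With shSiva1 the difference was 0.72 (SE 0.29, adjusted p = 0.0854), and the hairpins differed by 0.61 (SE 0.33, adjusted p = 0.232). Pooled over both hairpins, Epha4 rose by 1.02 (SE 0.26, adjusted p = 0.0229), or 2.03-fold. Without the first LSZ4 shGFP array the pooled value was 0.92 (adjusted p = 0.0515), and without both, the dimmest arrays, it was 0.72 (adjusted p = 0.101). It was 1.02 with a random block of line and hairpin (adjusted p = 0.0827) and 1.01 with 1 mean for each (adjusted p = 0.156). Against shGFP alone Epha4 rose by 1.47 (SE 0.27, adjusted p = 0.00331) and against shLacZ it was higher by 0.70 (SE 0.24, adjusted p = 0.0872). Without both LSZ4 shGFP arrays the difference from shGFP was 0.79 (adjusted p = 0.5), which then rested on 1 shGFP array.

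Epha7 encodes an ephrin-A receptor of the developing nervous system that also occurs as short forms without the kinase. Its probe in use was well above background on 14 of 15 arrays. In LSZ2, Epha7 read -0.50 with shGFP, -0.31 and -0.45 with shLacZ, -0.95 and -1.24 with shSiva1 and -1.54 and -1.60 with shSiva2. In LSZ4 it read -3.12 and -3.62 with shGFP, -1.82 and -3.04 with shLacZ, -2.90 and -3.32 with shSiva1 and -3.75 and -4.77 with shSiva2, the last of them not well above background. In LSZ2 every shSiva array lay below every control array, and in LSZ4 this was true of the shSiva2 arrays alone.

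Epha7 fell by 1.25 with shSiva2 (SE 0.28, adjusted p = 0.00865), to 42% of control. With shSiva1 the difference was -0.44 (SE 0.28, adjusted p = 0.275), and between the hairpins -0.81 (SE 0.32, adjusted p = 0.0944). Against shLacZ it fell by 1.10 (SE 0.25, adjusted p = 0.0116), and against shGFP it read -0.49 (SE 0.28, adjusted p = 0.208). With normexp background correction in place of the scanner's own, the shSiva2 difference was -0.72 (adjusted p = 0.087) and that from shLacZ -0.52 (adjusted p = 0.264). The further Epha7 probe, weaker and well above background on 6 arrays, all of LSZ2, read -0.87 with shSiva2 (SE 0.32). This did not pass over all probes (adjusted p = 0.104), includes undetected values on every LSZ4 array, and is given as a description.

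Epha2, a receptor for ephrin-A1 that is abundant in many epithelial tumours, did not pass in any of these comparisons. Its levels ran from 5.04 through a median of 5.35 to 6.06 in control and from 5.33 through 5.60 to 6.11 in shSiva arrays, which overlapped. The pooled difference was 0.19 (SE 0.17, adjusted p = 0.529), with a 95% interval from -0.17 to 0.55. Under quantile normalization it was 0.35 and passed.

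Of the EphB receptors, only Ephb2 passed in a hairpin comparison, and narrowly. Ephb2 and Ephb3 are known as targets of Wnt signalling that place cells along the intestinal crypt, and Ephb4 as a receptor for ephrin-B2 on veins. Ephb2 (chromosome 4, 136211203 to 136211262, minus strand, mm9) ran from -1.09 through -0.68 to -0.51 in control and from -1.30 through -0.98 to -0.94 in shSiva arrays. All shSiva arrays lay below all controls except for 1 LSZ2 shLacZ array, at -1.09. With shSiva1 it fell by 0.35 (SE 0.12, adjusted p = 0.0481). The call was lost in 13 of 15 fits that left out 1 array, and in 6 of the other 12 alternatives, with values from -0.40 to -0.17 over all of them.

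Ephb3 and Ephb4 did not pass with either hairpin. Ephb3 ran from 5.32 through 5.71 to 6.80 in control and from 5.56 through 6.01 to 6.78 in shSiva arrays. Ephb4, by its brighter probe (chromosome 5, 137815646 to 137815705, plus strand, mm9), ran from 2.20 through 2.87 to 3.91 in control and from 2.51 through 2.93 to 3.75 in shSiva arrays. The pooled differences were 0.14 (SE 0.22, adjusted p = 0.731) for Ephb3 and 0.01 (SE 0.20, adjusted p = 0.984) for Ephb4. Their 95% intervals reached from -0.32 to 0.60 and from -0.41 to 0.43. Under quantile normalization the pooled difference of Ephb3 was 0.31 and passed (adjusted p = 0.0403), and that of Ephb4 was 0.11 (adjusted p = 0.611).

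Among the ligands, Efnb2 rose with shSiva1, and Efnb2 and Efna1 differed between the Siva hairpins. Efnb2 encodes ephrin-B2, the arterial partner of the EphB4 receptor. Its brighter probe (chromosome 8, 8618177 to 8618236, minus strand, mm9) read 4.40 and 4.62 with shSiva1 in LSZ2 and 4.30 and 4.42 in LSZ4. With shSiva2 it read 3.86 and 3.82 in LSZ2 and 3.48 and 3.56 in LSZ4, and the 7 controls ran from 3.77 through 3.87 to 4.03. The shSiva1 arrays stood above all others, and the LSZ4 shSiva2 arrays below all others.

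Efnb2 rose by 0.55 with shSiva1 (SE 0.11, adjusted p = 0.00277), a 1.46-fold difference, and the value with shSiva2 was -0.21 (SE 0.11, adjusted p = 0.297). shSiva2 less shSiva1 was -0.76 (SE 0.13, adjusted p = 0.000545), which did not pass with 1 mean per line and hairpin (adjusted p = 0.0829). The other Efnb2 probe (chromosome 8, 8620426 to 8620485) gave 0.56 with shSiva1 (SE 0.14, adjusted p = 0.0108 over all probes) and -0.76 between the hairpins (SE 0.16, adjusted p = 0.0035). The rise with shSiva1 did not pass with normexp correction, where it was 0.39 (adjusted p = 0.1), nor when each line and hairpin was reduced to 1 mean, where it was 0.56 (adjusted p = 0.111).

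Efna1 encodes ephrin-A1, a ligand of the EphA2 receptor first found as a gene induced by tumour necrosis factor. Its probe (chromosome 3, 89075703 to 89075762, minus strand, mm9) read 2.35 and 2.71 with shSiva1 in LSZ2 and 2.66 and 3.11 in LSZ4. With shSiva2 it read 1.67 and 1.70 in LSZ2 and 1.96 and 2.30 in LSZ4, all below the lowest shSiva1 array. The controls, from 1.77 through 2.36 to 2.70, overlapped both. The difference between the hairpins was -0.80 (SE 0.22, adjusted p = 0.0157), while the values against control were 0.43 (adjusted p = 0.115) and -0.37 (adjusted p = 0.268). Without the second LSZ4 shSiva1 array the difference between the hairpins was -0.71 (adjusted p = 0.0606).

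Efnb1 encodes ephrin-B1, a ligand of EphB2 and EphB3 whose gene is on the X chromosome. It ran from 3.88 through 4.16 to 5.16 in control and from 3.44 through 3.96 to 4.67 in shSiva arrays, and the LSZ4 shGFP arrays, at 5.14 and 5.16, stood above all others. Against shGFP it fell by 0.69 (SE 0.21, adjusted p = 0.0363), and without both LSZ4 shGFP arrays the value was -0.13 (adjusted p = 0.925). Against shLacZ it read -0.22 (SE 0.19, adjusted p = 0.558). In all, 3 of 10 members passed against shGFP, where 20.4% of all genes did, and 2 of 10 against shLacZ, where 11.1% did. The comparison of shGFP with shLacZ called 0 of 10 members by limma, and 1 gene in all (0.00437%). At an unadjusted p under 0.05 it held 1 member, Epha4, at -0.77 (SE 0.31, adjusted p = 0.331).

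Within each line the pooled effect of the Siva hairpins called 0 of 10 members, against 0.925% of all genes in LSZ2 and 4.26% in LSZ4. At an unadjusted p under 0.05 were Epha7 in LSZ2 (-0.91, SE 0.42) and Epha1 (1.36, SE 0.63) and Epha4 (1.28, SE 0.36) in LSZ4. In LSZ2 the arms did not overlap for 2 of 10 members, Epha4 and Epha7, against 20.2% of all genes, and in LSZ4 for 1, Ephb2, against 7.18%. The difference between the lines' effects was called for 0 of 10 members and 0 of 22908 genes, of which 514 had an unadjusted p under 0.05. For Epha1 the effect in LSZ4 less that in LSZ2 was -0.04, with a 95% interval from -2.03 to 1.96, and for Epha4 it was 0.56, from -0.57 to 1.69.

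With each line and Siva hairpin set against the controls of its line, shSiva1 called 2 of 10 members in LSZ2 (8.51% of all genes) and 2 of 10 in LSZ4 (24.7%). Both times these were Epha1 and Efnb2. In LSZ4 shSiva2 called 2 of 10 members (9.15%), namely Epha4, which rose by 1.71 (SE 0.31, adjusted p = 0.00587), and Epha7, which fell by 1.36 (SE 0.36, adjusted p = 0.0386). In LSZ2 shSiva2 called 0 of 10 (4.17%), and there Epha4 read 0.91 (SE 0.34, adjusted p = 0.218) and Epha7 -1.13 (SE 0.39, adjusted p = 0.171).

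The lines differed in 4 of 10 members, where 20.3% of all genes were called. Epha7 was higher in LSZ2 by 2.41 (SE 0.28, adjusted p = 4.21e-05), a 5.32-fold difference, and all 7 LSZ2 arrays stood above all 8 LSZ4 arrays. Such a gap was seen in 1 of 10 members and 2.03% of all genes. The difference was 2.48 within the control arrays (SE 0.42, adjusted p = 0.00328) and 2.35 within the shSiva arrays (SE 0.39, adjusted p = 0.00411). With normexp correction it was 1.21 over all arrays and still passed (adjusted p = 0.00164). The further Epha7 probe was well above background on 6 of 7 LSZ2 and 0 of 8 LSZ4 arrays, so it was kept through LSZ2 alone. With the bound used for such groups it read at least 1.57-fold higher in LSZ2, which is given as a description.

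Some markers of cell identity were also called between the lines, where 20.3% of all genes were. Of 7 measured epithelial markers Epcam was higher in LSZ2, by 2.80 (adjusted p = 1.12e-08), and Krt8 and Krt18 read -0.58 and -0.64 (adjusted p = 0.0359 and 0.0344). Of 3 measured fibroblast markers Col1a2 was lower, at -0.71 (adjusted p = 0.0285), and of 2 endothelial markers Kdr was, at -0.71. The summed level of the epithelial list ran from 1312 to 1628 in LSZ2 and from 1364 to 3325 in LSZ4, and that of the fibroblast list from 0.138 to 0.246 and from 0.143 to 0.374. The part of these differences in the line values of the members was not tested.

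Epha4 was also higher in LSZ2, by 1.57 (SE 0.26, adjusted p = 0.00143), although the lines overlapped. Within the control arrays the difference was 1.87 (SE 0.39, adjusted p = 0.013), where 2 of 10 members were called (5.46% of all genes). Within the shSiva arrays it was 1.31 (SE 0.36, adjusted p = 0.111), where 1 of 10 was called (1.62%). With the brightness of the array as a term the difference was 1.03 (adjusted p = 0.0724). Epha1 was higher in LSZ2 by 1.12 (SE 0.45, adjusted p = 0.0721) without passing.

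Ephb4 and Efnb1 passed in the other direction. Ephb4 was lower in LSZ2, with a difference of -0.71 (SE 0.20, adjusted p = 0.0281), and its further probe gave -0.68 (SE 0.18, adjusted p = 0.0255). Efnb1 read -0.59 (SE 0.20, adjusted p = 0.0473), and Ephb3 -0.61 (SE 0.22, adjusted p = 0.0536). With brightness as a term the differences were -0.15 for Ephb4 (adjusted p = 0.631) and -0.19 for Efnb1 (adjusted p = 0.728). The call was lost in 7 of 15 fits that left out 1 array for Ephb4 and in 11 of 15 for Efnb1, which passed in 9 of 27 alternatives in all and read -0.30 under quantile normalization (adjusted p = 0.144). Without both LSZ4 shGFP arrays they were -0.53 (adjusted p = 0.115) and -0.40 (adjusted p = 0.194). The median line difference of the 10 genes was -0.24 and that of all genes -0.23.

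**Figure D3:**
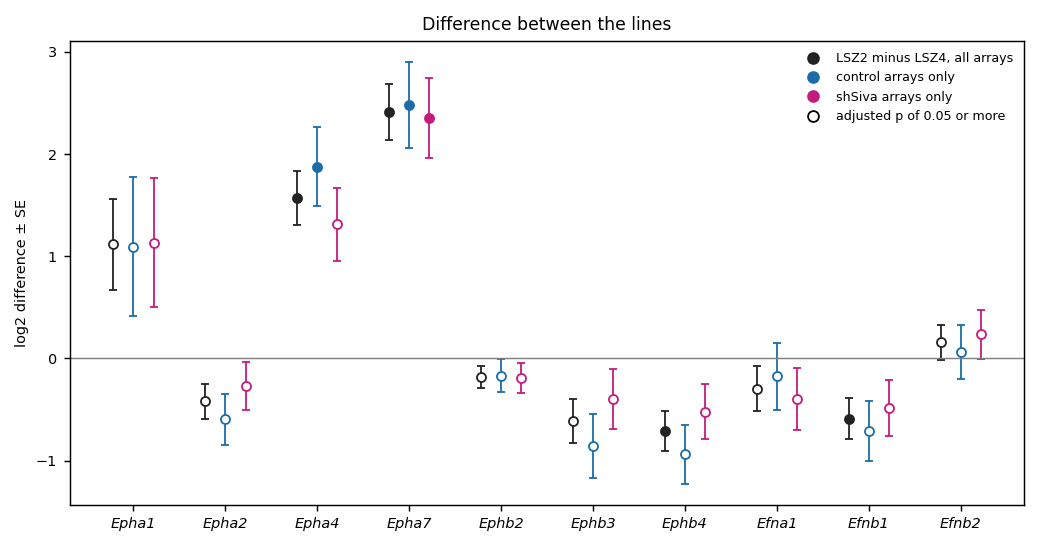
Log2 difference LSZ2 minus LSZ4 of each gene with its standard error, over all 15 arrays (black), in the 7 control arrays (blue) and in the 8 shSiva arrays (pink). Filled circles have an adjusted p under 0.05; Epha7 lies between 2.35 and 2.48 in all 3 and Epha4 between 1.31 and 1.87.

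The levels of several members followed the brightness of the array, in part by the way a level is made. A level has the array's 75th percentile subtracted, so a probe whose signal hardly changes between arrays shows a level that falls as brightness rises, and no p is given for these relations. The log2 of the percentile spanned 1.30 over the 15 arrays. Before scaling, the log2 signal of Ephb3 spanned 0.50, from 15.01 through a median of 15.25 to 15.51, and its level spanned 1.48. The level of Ephb3 had r = -0.96 with the log2 of the percentile (rho = -0.97), and -0.95 without the 2 arrays farthest from the median brightness, while its signal before scaling had r = -0.42. Within the control slide the level had r = -0.99 and within the shSiva slide -0.97. Ephb4 was alike, with r = -0.95 for the level (rho = -0.93, and -0.50 within LSZ2), r = -0.32 for the signal and a signal span of 0.69.

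Epha2 had r = -0.86 for its level (rho = -0.81) and 0.49 for its signal. In Epha7, by contrast, the level rose with brightness, at r = 0.80 (rho = 0.73), and so did the signal, at r = 0.88. Epha4 had r = 0.75 for its level (rho = 0.53), which was 0.50 without the 2 farthest arrays and -0.26 within LSZ2. Epha1 and Efnb2 had r = 0.39 and 0.32 for their levels. A strongly negative r was common, as 36.1% of 18328 genes measured on all arrays had r under -0.8 and 11.2% had r over 0.8. The LSZ4 arrays included the dimmest, so brightness and line went together in part. What the brightness of an array stands for was not tested.

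**Figure D4:**
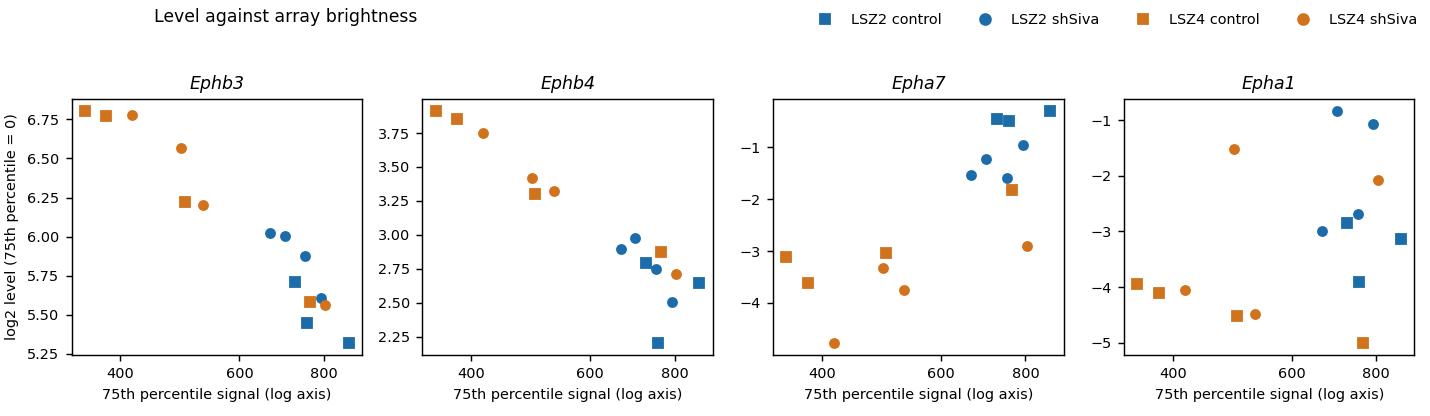
Log2 level of Ephb3, Ephb4, Epha7 and Epha1 against the 75th percentile signal of the array (intensity units, log axis), 1 point per array, with LSZ2 in blue, LSZ4 in orange, control as squares and shSiva as circles. A level has the percentile subtracted. Ephb3 and Ephb4 fall along a line (r = -0.96 and -0.95), while Epha1 (r = 0.39) is highest on the shSiva1 arrays. Their percentiles ran from 492 to 804, and the symbols do not separate shSiva1 from shSiva2.

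The Ephb3 probe moved with other probes that hold a repeat of GT. Besides it, 74 probes on the array carry at least 8 GT units in a row, and 100% of them were well above background on all 15 arrays, against 44% of probes with neither a GT nor an AC repeat. Their levels correlated with that of Ephb3 at a median r of 0.99 over the 15 arrays, and 73 of 74 exceeded 0.9. Of 24462 probes with neither repeat 12.5% did, with a median r of 0.57. Of 33 measured probes with a repeat of AC, the opposite strand, 0 did, with a median r of -0.19. All levels share the subtracted percentile, and on the signal before scaling the median r was 0.88 for the GT probes (28 of 74 over 0.9), -0.32 for probes with neither repeat (5 over 0.9) and -0.66 for AC probes.

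Epha5 was 1 of the 74, at r = 0.99 with Ephb3 by level and 0.89 by signal, and the other Epha5 probe was well above background on 0 arrays. Ephb4 and Epha2, whose measured probes are not in the GT group, had r = 0.95 and 0.93 with Ephb3 by level and 0.50 and 0.36 by signal. These correlations describe probes that share arrays, and whether the Ephb3 and Epha5 signals come from their own transcripts was not tested.

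**Figure D5:**
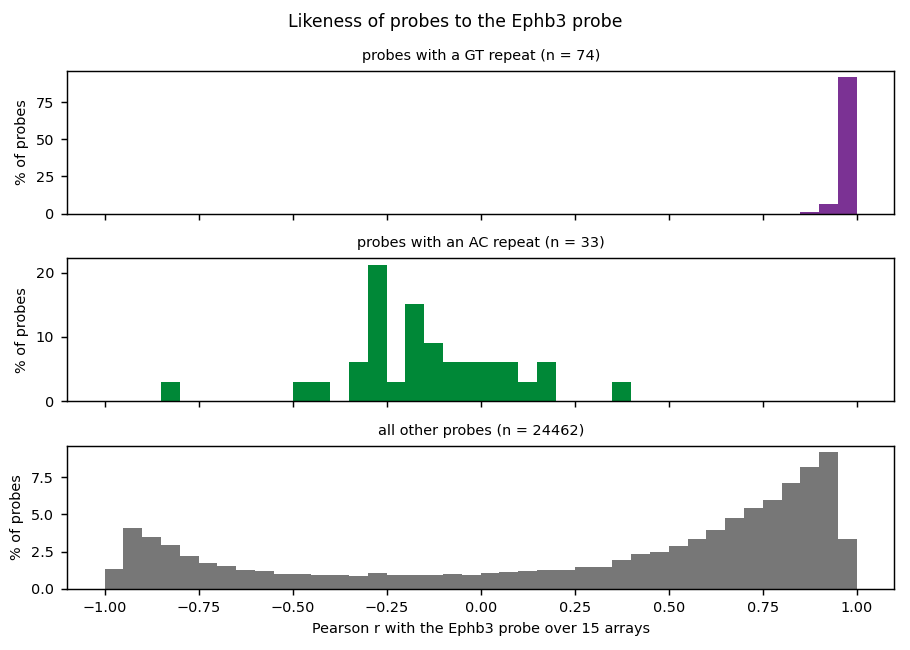
Share of probes (percent) by Pearson r with the Ephb3 probe over 15 arrays, in bins of 0.05, for probes with a GT repeat (n = 74), an AC repeat (n = 33) and neither (n = 24462), all well above background on every array. The GT probes lie near 1, the AC probes mostly between -0.35 and 0.2, and the others over the whole range.

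Of the other 12 genes of the family 8 were measured, and Epha3, Epha6, Epha10 and Ephb1 were well above background on 0 arrays. Efna4, a class A ligand, was highest with shSiva1, as Epha1 was. Efna4 read 0.81 and 1.08 in LSZ2 and 1.45 and 1.90 in LSZ4 with shSiva1, from -1.04 through a median of -0.72 to -0.57 with shSiva2, and from -1.33 through -0.51 to -0.28 in control. It rose by 1.99 with shSiva1 (SE 0.22, adjusted p = 1.07e-05) and was lower by 2.08 with shSiva2 than with shSiva1 (adjusted p = 2.37e-05). Efna5, another class A ligand, rose by 0.69 with shSiva2 (SE 0.12, adjusted p = 0.00162), and all 4 shSiva2 arrays lay above all controls.

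Epha8, a receptor known from the midbrain, read lower by 1.12 in the pooled comparison (SE 0.33, adjusted p = 0.0415) and was the only one of these 8 that passed there. It was well above background on 6 arrays, those of LSZ4 with shGFP, shLacZ or shSiva2. Epha8 was so kept through LSZ4 alone, where it read at least 2.82-fold higher than in LSZ2. The pooled value includes undetected values on every LSZ2 and every LSZ4 shSiva1 array, and both values are given as a description. Ephb6, a family member without kinase activity, was lower in LSZ2 by 0.99 (SE 0.22, adjusted p = 0.0118). Efna2 was lower by 0.84 (adjusted p = 0.0174) and Efna3 by 0.61 (adjusted p = 0.0461), while Efna5 was higher by 0.61 (adjusted p = 0.0492). The other Ephb6 probe, well above background on 15 arrays, ran from -4.20 to -2.99 in LSZ2 and from -3.93 to -2.75 in LSZ4. Levels of Ephb6, Efna2, Efna3 and Efna5 had r = -0.86, -0.72, -0.96 and 0.27 with the brightness of the array. Efna2 was well above background on 8 arrays, and the part of brightness in these line differences was not tested. Efnb3 differed between the hairpins by 0.47, shSiva2 less shSiva1 (SE 0.15, adjusted p = 0.0354).

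Genes that act with Eph receptors changed in small numbers in the pooled comparison. Of 41 listed signalling partners 38 were measured, of which 2 rose and 0 fell, where 4.39% of all genes rose and 5.16% fell. Their median difference was 0.10, against -0.11 over all genes. Ptpn13, a phosphatase that can bind ephrin-B, rose by 2.51 (SE 0.18, adjusted p = 1.24e-06), by 2.68 with shSiva1 and by 2.34 with shSiva2. Sipa1l1, a Rap regulator that binds EphA4, rose by 0.59 (SE 0.15, adjusted p = 0.0246), and the adaptor Grb7 read -0.49 (adjusted p = 0.111). Sipa1l1 read 0.89 with shSiva1 (adjusted p = 0.000102) and 0.29 with shSiva2 (adjusted p = 0.16), and the hairpins differed by -0.60 (adjusted p = 0.00656). With shSiva1 9 partners rose and 1 fell (10.4% and 14.3% of all genes), and with shSiva2 1 rose and 2 fell (6.08% and 5.86%). Between the lines 5 were higher and 2 lower in LSZ2 (7.04% and 13.3% of all genes), the lower ones being Ptpn13 (-0.84, adjusted p = 0.009) and the adaptor Shc1 (-0.73, adjusted p = 0.017), while Grb7 was higher (0.71, adjusted p = 0.0234).

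Of 13 ephrin sheddases and reverse signalling partners 11 were measured, of which 1 rose and 0 fell with Siva hairpins (4.39% and 5.16% of all genes), at a median difference of -0.03. This was Mmp14, a membrane protease, at 0.88 (SE 0.20, adjusted p = 0.011). Mmp14 read 1.23 with shSiva1 (adjusted p = 0.000153) and 0.53 with shSiva2 (adjusted p = 0.0704), and the hairpins differed by -0.69 (adjusted p = 0.0241). Tiam2, an activator of Rac, read 0.60 (adjusted p = 0.0841) and Rgs3, which binds ephrin-B, 0.39 (adjusted p = 0.257). Between the lines 0 were higher and 3 lower in LSZ2 (7.04% and 13.3% of all genes), namely Mmp14 (-0.72), Rgs3 (-0.70) and the scaffold Pick1 (-0.67), with adjusted p = 0.0283, 0.0348 and 0.0275. Of 14 junction and repulsion partners 9 were measured, of which 1 rose and 0 fell (4.39% and 5.16% of all genes), at a median difference of -0.10. Cdh2, or N-cadherin, rose by 0.996 (SE 0.29, adjusted p = 0.0433), and Itgb1 (0.57, adjusted p = 0.117) and Vegfa (-0.21, adjusted p = 0.313) did not pass. Cdh2 read 1.52 with shSiva1 (adjusted p = 0.00075) and 0.47 with shSiva2 (adjusted p = 0.322), and the hairpins differed by -1.05 (adjusted p = 0.0227). Between the lines 1 was higher and 1 lower in LSZ2 (7.04% and 13.3% of all genes), namely Tjp1 (0.73, adjusted p = 0.0474) and Kdr (-0.71, adjusted p = 0.0418), and L1cam read -0.67 (adjusted p = 0.0516).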

How the data were processed

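Total RNA (200 ng, Cy3) was measured on 15 single-colour arrays. The deposited scanner files hold intensity per spot, made with version 10.7.3.1 of Feature Extraction and mm9 positions, per the file headers. The deposited value table holds log2 values, in which each probe's median is 0 and column medians run from -0.26 to 0.53, and 99.84% of them were within 0.05 of the scaling used here.

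Control and outlier spots were left out, and spots of a probe were averaged. The log2 processed signal was reduced by the array's 75th percentile. Probes missing on more than 3 arrays or detected on fewer than 4 were dropped (32188 kept), and the brightest probe stood for its gene (22908 genes). Symbols came from the accession for 26582 probes and from the file for 29099. limma 3.58.1 in R 4.3.3 was fitted over all arrays with line as a term, and p was adjusted over all genes (Benjamini-Hochberg, threshold 0.05). A group with 0 arrays well above background gave a bound only, its array values raised to the lowest signal well above background where that was higher. The fits were tested on simulated data.

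Genes named were the members, measured family genes, the 3 of each partner list with the smallest p (pooled, and between lines) and the 3 most like the leading members. Members and lists were chosen with earlier results of these data known. The labels do not name separate cultures, so the p-values reflect the spread of these samples alone, which may be technical. The number of arrays limits the precision. Alternatives covered scaling, background, filters, probes, blocks and left-out arrays.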

Additional observations from a re-analysis of the deposited data

Results flagged for a closer look

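The comparison of shSiva2 with shSiva1 marked 3 members for which the effects of the hairpins differed by a test of the difference itself, within 1 slide. Epha1 differed by -2.17 on the log2 scale (adjusted p = 3.18e-05), Efna1 by -0.80 (adjusted p = 0.0157) and Efnb2 by -0.76 (adjusted p = 0.000545), each with all 4 shSiva2 arrays below all 4 shSiva1 arrays. With 1 mean per line and hairpin Epha1 still passed (adjusted p = 0.00362), while Efna1 (adjusted p = 0.136) and Efnb2 (adjusted p = 0.0829) did not. The Siva1 transcript was at 13.1% of control with shSiva1 and 23.6% with shSiva2, and its own difference between the hairpins was 0.84 (adjusted p = 0.0586). Whether this difference in Siva1 bears on the 3 members was not tested. Of 39 sets of 4 arrays examined (13 probes in 3 combinations of line and arm), 0 held an array set far apart from the others by Dixon's rule. The LSZ2 controls, a set of 3, were not examined. Each set held both hairpins of its arm. A gap between hairpins widens the range the rule divides by, so it could miss an outlying array.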

How the results depend on the processing

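Of 2948 alternative values of 110 member results, 2790 stayed on their side of the threshold without turning a call, 76 passed newly and 80 no longer. The sign changed in 132 of the 2790, with neither value called, and 18 results were called at the outset. The rise of Epha1 with shSiva1, its difference between the hairpins, the rise of Epha4 with shSiva2 and the line difference of Epha7 passed under every alternative run. These were 27 for Epha4 and 26 for Epha1 and Epha7. The filter for genes detected on all arrays dropped Epha1 and Epha7, so they were not tested under it. With the brightness of the array as a term, chosen after seeing the data, Ephb3 turned sign and passed, with 0.22 for shSiva1 against control (adjusted p = 0.0201) and 0.28 for Siva hairpins against shGFP (adjusted p = 0.0221), and the cause was not tested.

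Counts of all genes called moved more. Siva hairpins against control called 2188 genes, but 831 with normexp background, 901 with a random block of line and hairpin, 272 with 1 mean per line and hairpin, 1331 without both LSZ4 shGFP arrays (chosen after seeing the data) and 6658 with the brightness term. In LSZ2 212 became 403 (quantile normalization), 85 (normexp), 124 (detected on all arrays), 72 (random block), 0 (1 mean) and 1877 (brightness). In LSZ4 977 became 1553 (quantile), 546 (normexp), 640 (no filter), 264 (random block), 32 (1 mean), 354 (without both LSZ4 shGFP arrays) and 3931 (brightness). The difference between the lines' effects, at 0, became 4 (quantile) and 17 (brightness). For shSiva1 5653 became 3549 (random block), 2530 (1 mean) and 11409 (brightness), and for shSiva2 2735 became 4189 (quantile), 1205 (normexp), 1700 (random block), 1114 (1 mean) and 8802 (brightness). Between the hairpins 4403 became 2055 (1 mean) and 9635 (brightness). Against shGFP 4680 became 1457 (normexp), 748 (1 mean) and 322 (without both LSZ4 shGFP arrays), and against shLacZ 2533 became 3887 (quantile), 1171 (normexp), 434 (1 mean) and 8963 (brightness). shGFP against shLacZ called 1 gene, and 3 (quantile or median scaling), 0 (normexp, all arrays or 1 mean) and 5 (no filter). Between the lines 4656 became 2054 (normexp), 8382 (no filter), 979 (random block), 451 (1 mean), 1008 (without both LSZ4 shGFP arrays) and 1002 (brightness).

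With 1 array left out, these counts ran from 1486 to 3611 (pooled), 72 to 375 (LSZ2), 485 to 5790 (LSZ4), 0 to 3 (difference of effects), 3871 to 8666 (shSiva1), 1743 to 3912 (shSiva2), 3425 to 5535 (between hairpins), 1425 to 8932 (shGFP), 1778 to 2911 (shLacZ), 0 to 5 (shGFP against shLacZ) and 1252 to 12042 (lines). The share of calls that were higher went from 45.9% to 56% (pooled) and from 55.5% to 43% (LSZ4) with normexp, and from 34.6% to 45.5% (lines) with quantile normalization, where the median of all genes between the lines went from -0.23 to -0.07. The brightness term gave 34% (pooled), 39.9% against 81.6% (LSZ2) and 65.1% (lines, with a median of 0.04), 1 mean per line and hairpin gave 73.9% (pooled) and 61% (lines), and no filter 20% (lines).

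With the replicate number as a replicate block, the pooled count was 2712, that against shGFP 9875 and that of shGFP against shLacZ 4. Deviations of same-numbered arrays correlated from -0.21 to 0.73, with a median of 0.23 and 14 of 21 pairs over 0.1. As not every pair was, the numbers were not read as pairing the arrays. Slide could not be fitted as a block in comparisons across arms.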

Other observations

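The genes whose levels followed those of the leading members most closely over the 15 arrays, among 18328 genes measured on all arrays, are given as a description of arrays that share line, hairpin and brightness. For Epha4 they were Dennd2c (r = 0.98), a transcript known by an identifier only and Rps6ka5 (r = 0.97), for Epha1 Klc3 (r = 0.98), Galnt12 (r = 0.97) and Gstt3 (r = 0.97), and for Epha7 Actr3, Phka1 (both r = 0.97) and Nectin3 (r = 0.96).

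The blood marker Itgam was well above background on all 15 arrays, at 3.62 in control and 3.47 in shSiva arrays. Its probe holds a repeat of AC, as do 32 other measured probes, and the blood marker Lyz2 was well above background on 0 arrays.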
